A study of Rattus norvegicus with 16 samples.

Results

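The genes described here encode the subunits of the constitutive proteasome and the dedicated chaperones that assemble it. They were chosen by name: every array probe whose gene symbol is Psma, Psmb, Psmc, Psmd or Psmg followed by a number, with the immune-inducible Psmb8, Psmb9 and Psmb10 left out. The rule found 38 genes on 113 spots, of 16974 genes on 45904 gene spots of the array. Of the 38, 37 had a signal above the intensity minimum of 6.49 log2 in at least 1 group and were tested among 10056 genes. The exception was Psmb11, the catalytic subunit of the thymus proteasome, whose signals lay between 5.31 and 6.87 log2. The symbols Psma3l and Psmc3ip do not end in the number and were not taken, and Psmg3 has no spot. Psma8 is on the array only under its updated symbol, so the rule did not take it, and it did not pass the intensity minimum.

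The samples are brain tissue from males of an inbred rat strain, LOU/C/Jall, with messenger RNA read on Agilent arrays of 1 colour, and the series title asks which genes accompany ageing in good condition. The 4 groups hold 4 arrays each: young hippocampus, old hippocampus, young frontal cortex and old frontal cortex, all of that 1 strain, so that no other strain serves as a control, and the labels name no treatment beyond isoflurane before decapitation. The sample labels give 5 months for the young rats and the series design text gives 3, and the old rats were 26 months old by either source. Letter codes in the titles name the arrays: young rats have Y, Z, AA and AB, old rats have AF, AG, AH and AI, and a code occurs once in either region. The labels do not say whether a code is an animal, so the tests measure the spread between these arrays, which may be partly technical.

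The proteasome is the protease that degrades proteins tagged with ubiquitin. Its barrel, the 20S core, is built of outer rings of alpha subunits, which gate the entry, and inner rings of beta subunits, among which Psmb5, Psmb6 and Psmb7 cut after hydrophobic, acidic and basic residues. The 19S cap holds a ring of ATPases, the Psmc genes, which unfold substrates, and non-ATPase subunits, most of the Psmd genes, which bind ubiquitin and remove it. Psmg proteins and Psmd5, Psmd9 and Psmd10 are chaperones that help the core and the cap assemble and are not part of the finished particle. Neurons depend on the proteasome for protein turnover at synapses, and its decline is a common subject of work on brain ageing.

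All values are log2 signals, and a difference of 2 group means is given with its moderated SE from limma. A gene is called when its p, adjusted over all 10056 tested genes by the Benjamini-Hochberg method, is under 0.05. On single arrays the 37 tested genes spanned 6.31 to 15.07 log2. Probes of different genes bind with different strength, so these levels are not ranked against each other. The genes varied little within groups, with a median residual SD of 0.123 log2 against 0.165 over all tested genes. These sets were not matched for signal level, and neither are the shares of all tested genes given below. A stricter intensity filter kept 35 of the 37 genes but 6786 of the 10056. The number of arrays limits the precision, and the SE of an age difference lay between 0.07 and 0.14 for these genes.

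The labelled tissues were checked against marker genes. Of 9 listed markers of hippocampal neurons, 6 were tested and called higher in hippocampus, while Prox1, Lct and Tdo2 were below the intensity minimum. Dsp, and Rspo1 below, passed that minimum through hippocampus alone, so they had to differ. Of 6 tested markers of frontal cortex neurons, 3 were called higher in frontal cortex (Rorb, Fezf2 and Lamp5), 2 were called higher in hippocampus (Rspo1 and Nr4a2) and 1 passed in neither direction (Tle4). Old frontal cortex array AG stood apart: the 9 striatal markers on the array, tested or not, averaged 1.83 log2 above their means, against 0.40 to 0.51 on the other 3 old frontal cortex arrays. The same mean was 1.19 and 1.26 on young frontal cortex arrays AA and AB, and -0.16 and -0.14 on Y and Z. Arrays of code AF had the highest erythrocyte marker means, 1.37 in frontal cortex and 1.21 in hippocampus. Values without some of these arrays are given below for some of the genes that they move, not for all.

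**Figure D1:**
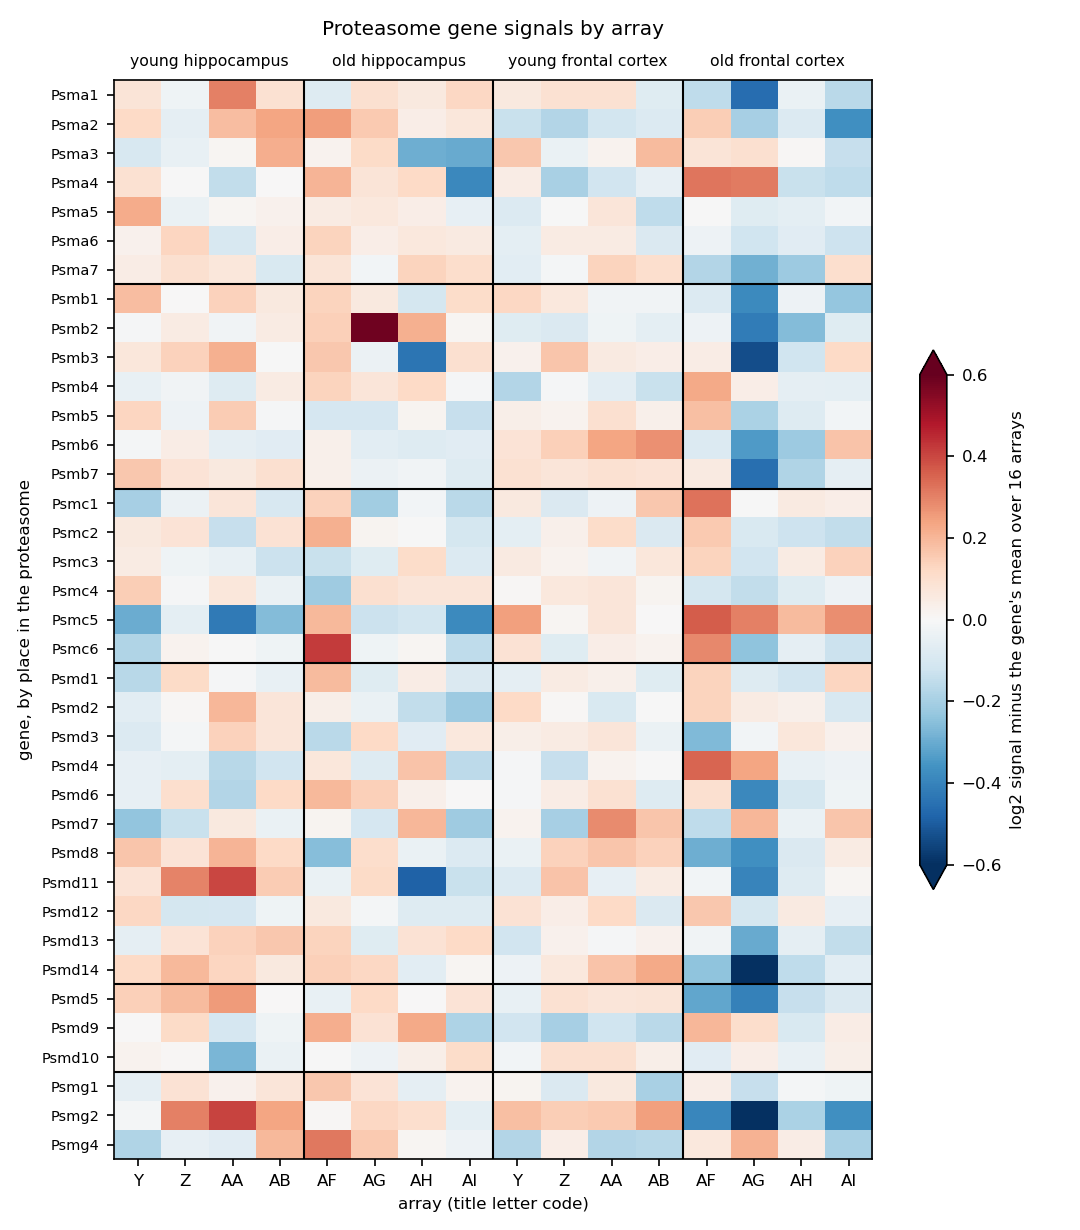
Signal of each of the 37 tested proteasome genes (rows, by place in the particle) on each of the 16 arrays (columns, by group and title code), as log2 difference from the gene's mean over the arrays; colours saturate at 0.6 in either direction. Old frontal cortex array AG has the most blue cells of deep shade and its median over the genes is -0.14, while the row of Psmc5 is mostly blue in hippocampus and red or pale in frontal cortex.

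In hippocampus, none of the 37 proteasome genes differed between old and young rats by limma. The share of all tested genes called there was 0.0398%, 4 genes. The old minus young differences were positive for 19 genes and negative for 18, with a median of 0.00026, beside 0.01 over all tested genes. They ran from -0.37 for Psmd11 to 0.22 for Psmb2. Only Psmd11 and Psmd8, both negative, had an unadjusted p under 0.05, which is 5.41% of the 37 beside 6.77% of all tested genes.

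The intervals around these differences were narrow. For 36 of the 37 genes (97.3%) the 95% interval of the hippocampal age difference lay within 0.5 log2 of 0 on both sides, which held for 80.8% of all tested genes. The intervals together covered -0.63 to 0.45. Psmd11 was the gene whose interval went further. The median size of the difference, without regard to sign, was 0.07, and 0.09 over all tested genes.

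Psmd11 encodes a lid subunit that helps hold the cap to the core. Its hippocampal signals were 7.89, 8.11, 8.21 and 7.96 on young arrays Y, Z, AA and AB, and 7.77, 7.92, 7.33 and 7.67 on old arrays AF, AG, AH and AI. Array AG of the old group lay above the lowest young array, so the groups overlapped, and AH was the lowest. The difference was -0.37 ± 0.12 (SE), with an adjusted p of 0.628. Psmd8, another lid subunit, read 10.67, 10.58, 10.70 and 10.62 in young and 10.24, 10.61, 10.46 and 10.42 in old hippocampus, a difference of -0.21 ± 0.10 (SE) with an adjusted p of 0.729. Old array AG again reached the young range.

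Psmb2, a beta subunit without a cutting site of its own, had the largest positive difference in hippocampus. It read 12.05, 12.10, 12.03 and 12.11 in young rats and 12.20, 12.64, 12.27 and 12.07 in old rats. Old array AI lay within the young range and AG far above it, and the difference was 0.22 ± 0.11 (SE), adjusted p 0.74. This gene has 10 spots on the array, whose hippocampal age differences ran from -0.11 to 0.22, and 5 of the 10 were negative. The value above is that of the brightest spot, and it is also the highest of the 10. With the mean of all spots the difference was 0.02, without old hippocampus array AG 0.10, and without codes AF and AG 0.09.

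The subunits that cut peptides showed no called age difference in hippocampus. The young and old means were 12.97 ± 0.09 and 12.83 ± 0.07 (SD, n = 4) for Psmb5 and 10.62 ± 0.05 and 10.60 ± 0.05 for Psmb6. For Psmb7 every old array lay below every young array: 11.92 to 12.03 in young and 11.79 to 11.90 in old rats, a difference of -0.12 ± 0.09 (SE), adjusted p 0.801. It was the only 1 of the 37 with groups that did not overlap in hippocampus, 2.7% beside 4.56% of all tested genes. Psmd2, the large base subunit that docks ubiquitin shuttles, differed by -0.15 ± 0.08 (SE) with an adjusted p of 0.785. Without codes AF and AG the difference of Psmd2 was -0.24.

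By place in the particle, the hippocampal age differences had no common sign. They were positive for 4 of 7 alpha genes, 2 of 7 beta genes, 4 of 6 ATPase genes and 5 of 11 non-ATPase genes. Of the chaperone genes, 2 of 3 for the cap and 2 of 3 for the core were positive. The group medians lay between -0.05 for the beta genes and 0.09 for the cap chaperones.

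**Figure D2:**
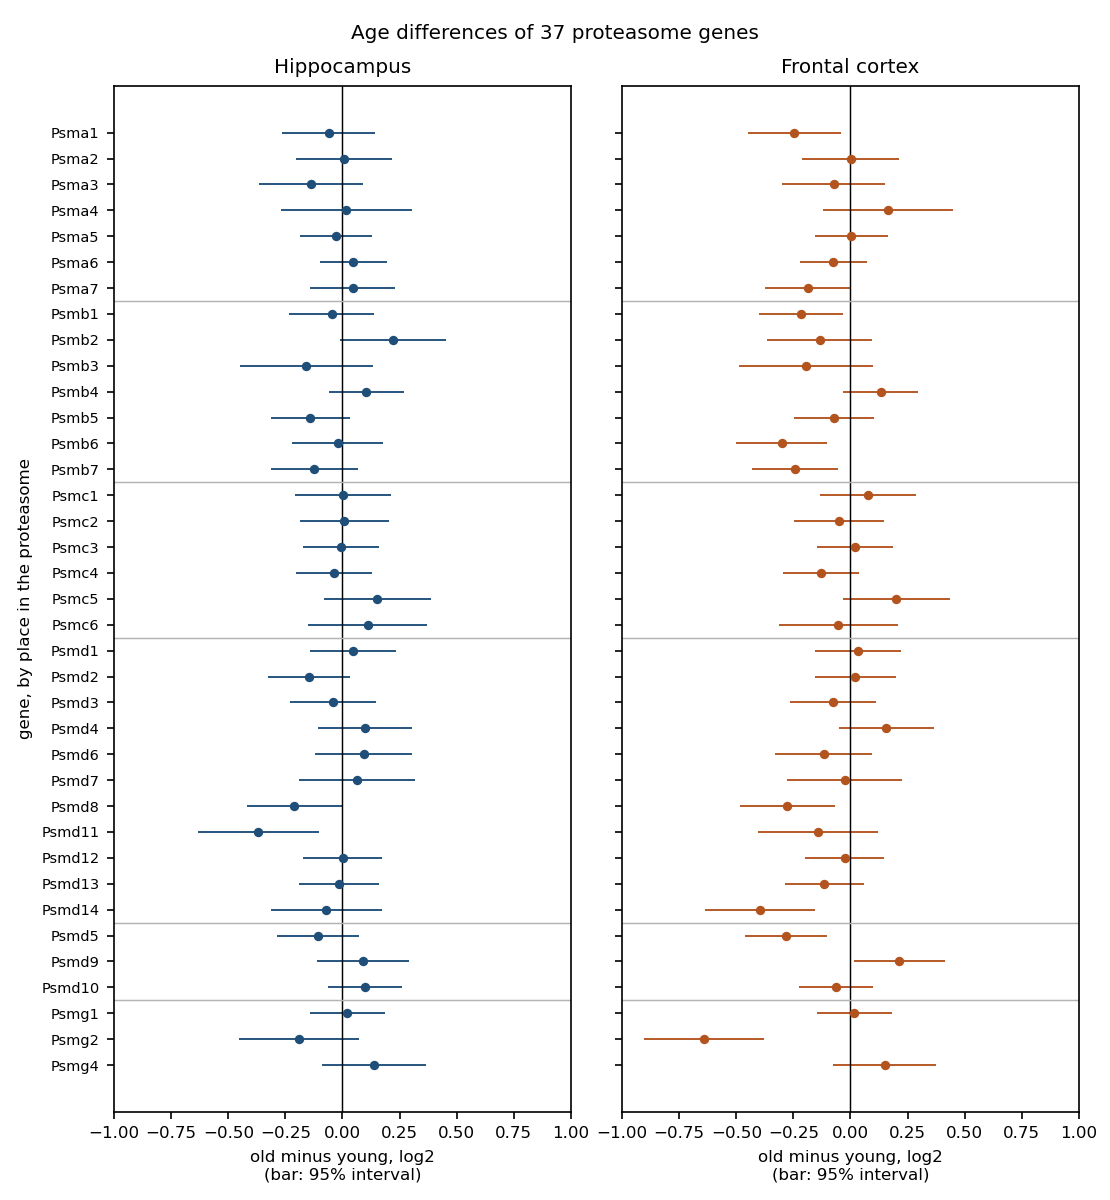
Old minus young difference in log2 signal (horizontal axis) for the 37 tested genes (vertical axis, by place in the particle) in hippocampus and in frontal cortex; points are limma estimates and bars 95% intervals. In hippocampus no point passed the adjusted threshold, and in frontal cortex Psmg2, at -0.64, did.

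In frontal cortex, 1 of the 37 genes was called by age: Psmg2 was lower in old rats by 0.64 log2, 1.56-fold. Over all genes 0.965% were called. A further 9 genes had an unadjusted p under 0.05, of which 8 were negative (Psmd14, Psmd5, Psmb6, Psmd8, Psmb7, Psma1, Psmb1 and Psma7) and 1 was positive (Psmd9). With Psmg2 that is 27% of the 37, beside 22.2% of all tested genes. In both directions together, the share is near the background. Lower in old rats at that p were 9 of the 37, beside 1193 of all 10056 tested genes. The differences were negative for 24 genes (64.9%, beside 49.8% of all tested genes) and positive for 13. Their median was -0.07, beside 0.001 over all genes. Whether the genes were lower as a set was not tested.

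Psmg2 encodes a chaperone that pairs with Psmg1 to start the ring of alpha subunits. In young frontal cortex its signals were 7.38, 7.35, 7.36 and 7.45 on arrays Y, Z, AA and AB. In old frontal cortex they were 6.81, 6.31, 7.01 and 6.84 on arrays AF, AG, AH and AI. All old arrays lay below all young ones, and AG was the lowest.

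The means were 7.39 ± 0.04 (SD, n = 4) in young and 6.74 ± 0.30 in old rats, a difference of -0.64 ± 0.12 (SE), adjusted p 0.0251. The signals are low on this array, close to the intensity minimum of 6.49. The second spot of the gene gave -0.42. The call was lost, with adjusted p from 0.0528 to 0.0976, when any 1 of 5 frontal cortex arrays was left out (old AF or AG, young Z, AA or AB), and without AG the difference was -0.50. Without codes AF and AG in both regions it was -0.46, adjusted p 0.21.

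Psmg2 in hippocampus read 7.19, 7.51, 7.61 and 7.44 in young and 7.21, 7.33, 7.31 and 7.15 in old rats. These groups overlapped, and the difference was -0.19 ± 0.12 (SE), adjusted p 0.79. The frontal cortex means of its partner Psmg1 were 11.61 ± 0.11 (SD, n = 4) at the young age and 11.63 ± 0.07 at the old age, a difference of 0.02 ± 0.08 (SE). Psmg4, another chaperone of core assembly, differed by 0.15 ± 0.11 (SE) there, adjusted p 0.427. Of the 3 core chaperones tested, Psmg2 was the 1 that was called.

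Psmd14 is the enzyme of the cap that cuts ubiquitin chains from substrates. It read 9.64, 9.73, 9.84 and 9.90 in young and 9.43, 8.97, 9.52 and 9.61 in old frontal cortex, with no overlap and AG the lowest. The difference was -0.40 ± 0.11 (SE), adjusted p 0.081, and the second spot gave -0.44. Without array AG it was -0.26 (adjusted p 0.188), and without codes AF and AG -0.21 (adjusted p 0.485). In hippocampus the gene differed by -0.07 ± 0.11 (SE), with signals of 9.73 to 9.86 in young and 9.61 to 9.81 in old rats.

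Psmd5 encodes a chaperone of the ATPase ring. Its frontal cortex signals were 8.42, 8.55, 8.53 and 8.54 in young and 8.15, 8.06, 8.32 and 8.37 in old rats, a difference of -0.28 ± 0.08 (SE) with an adjusted p of 0.0893. The groups did not overlap, young array Y stood below the other 3, and without codes AF and AG the difference was -0.16 (adjusted p 0.623). Psmd9, which also chaperones the cap, had the largest positive difference, 0.21 ± 0.09 (SE), adjusted p 0.198, from 9.78 to 9.87 in young and 9.89 to 10.18 in old rats. Its 4 spots gave -0.06 to 0.21, their mean 0.10, and the fit without codes AF and AG 0.13. Psmd10, the third cap chaperone, differed by -0.06 ± 0.08 (SE).

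The cutting subunits Psmb6 and Psmb7 had negative differences that did not pass the adjusted threshold. Psmb6 read 10.72, 10.79, 10.88 and 10.92 in young and 10.56, 10.30, 10.42 and 10.81 in old frontal cortex. Old array AI lay within the young range, and the difference was -0.30 ± 0.09 (SE), adjusted p 0.0952. Psmb7 read 11.96, 11.93, 11.96 and 11.95 in young and 11.92, 11.41, 11.68 and 11.81 in old frontal cortex, -0.24 ± 0.09 (SE), adjusted p 0.138. The young arrays lay within a narrow band and all old ones below it, AG lowest and AF just under. Without AG the difference of Psmb7 was -0.15, adjusted p 0.345. Psmb5 was 12.96 ± 0.03 (SD, n = 4) and 12.89 ± 0.15, a difference of -0.07 ± 0.08 (SE).

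In the cap, Psmd8 read 10.46, 10.64, 10.67 and 10.64 in young and 10.21, 10.13, 10.41 and 10.55 in old frontal cortex, -0.28 ± 0.10 (SE), adjusted p 0.127. Old array AI overlapped the young arrays, and without codes AF and AG the difference was -0.12, adjusted p 0.725. Psmd4, a ubiquitin receptor, had means of 12.52 ± 0.07 (SD, n = 4) at the young and 12.68 ± 0.20 at the old age, adjusted p 0.356. Psmc4, an ATPase, had means of 10.50 ± 0.03 and 10.37 ± 0.05, adjusted p 0.343. All 4 old arrays lay below all young ones for Psmc4. In the alpha ring, Psma7 had frontal cortex means of 12.39 ± 0.09 (young) and 12.21 ± 0.17 (old), adjusted p 0.224.

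Old and young frontal cortex arrays did not overlap for 7 of the 37 genes, 18.9% beside 12.8% of all tested genes. The old arrays were the lower ones for 6 (Psmb1, Psmb7, Psmc4, Psmd14, Psmd5 and Psmg2) and the higher ones for Psmd9. Over all 10056 tested genes they were the lower ones for 604 and the higher ones for 683. By place in the particle, the differences were negative for 6 of 7 beta genes (median -0.19), 8 of 11 non-ATPase genes (median -0.08) and 4 of 7 alpha genes (median -0.07). They were negative for 3 of 6 ATPase genes, 2 of 3 cap chaperones and 1 of 3 core chaperones. For 34 of the 37 genes (91.9%) the 95% interval lay within 0.5 log2 of 0, which held for 69% of all genes, and the lowest bound, for Psmg2, was -0.91.

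These frontal cortex values moved with array AG. The median deviation of the 37 genes from their means was -0.14 on AG and between -0.07 and 0.04 on the other 3 old arrays, while the 4 young arrays lay between 0.0045 and 0.06. On AG 10 of the 37 genes were above their mean, on AH 8, on AI 13 and on AF 20. Without AG, 22 of the 37 differences were negative, 5 had an unadjusted p under 0.05 and a negative sign (15.5% of all genes had that p in either direction), the median was -0.05, and none was called. Without array AI of the old group 5 were called, all lower (Psmg2, Psmd14, Psmd5, Psmb6 and Psmd8), and in that fit 741 of all 10063 tested genes were called, against 97 with AI.

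The marker means of several cell types are given here for young and old frontal cortex arrays. The ranges overlapped except for microglia, and no list was tested by age. The mean of the 10 neuron markers ran from -0.02 to 0.12 on young and from -0.17 to 0.00051 on old arrays. The microglia mean ran from -0.20 to -0.08 and from 0.001 to 0.24, and the myelin mean from -0.82 to -0.04 and from -0.10 to 0.64. Markers of meninges and mural cells ran from -0.16 to 1.14 on young and from -0.73 to 0.06 on old arrays. Their part in the proteasome values was not tested, and in bulk tissue fewer cells of a type and less RNA per cell cannot be told apart.

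The age differences of the 2 regions were set against each other in the same limma fit. No gene of the array was called for this difference of age effects, 0% of 10056, and none of the 37. At an unadjusted p under 0.05 there were 2 of the 37, 5.41% beside 2.65% of all genes: Psmg2, whose age difference was 0.45 ± 0.18 (SE) higher in hippocampus than in frontal cortex, and Psmb2, with 0.36 ± 0.15 the same way. Both had an adjusted p of 0.999. The next values were 0.28 ± 0.13 for Psmb6, 0.33 ± 0.16 for Psmd14, 0.23 ± 0.12 for Psma7 and 0.16 ± 0.11 for Psmd10, and the most negative was -0.23 ± 0.18 for Psmd11. Without codes AF and AG the values were 0.25 for Psmg2, 0.20 for Psmb2, 0.06 for Psmd14 and -0.49 for Psmd11. That Psmg2 was called in frontal cortex and not in hippocampus does not show that its age effect differed between the regions.

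Across the regions, 15 of the 37 genes had a negative age difference in both, 10 a positive one in both, 9 a negative one in frontal cortex alone and 3 in hippocampus alone. Psmc5 was positive in both, at 0.15 ± 0.11 (SE) in hippocampus and 0.20 ± 0.11 in frontal cortex. Its second spot gave 0.02 in hippocampus and 0.34 in frontal cortex. Array AF had the highest Psmc5 signal in old hippocampus. Psmb2 had opposite signs, 0.22 and -0.14. On the 10 spots of Psmb2 the frontal cortex difference was negative in 10, between -0.21 and -0.14.

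**Figure D3:**
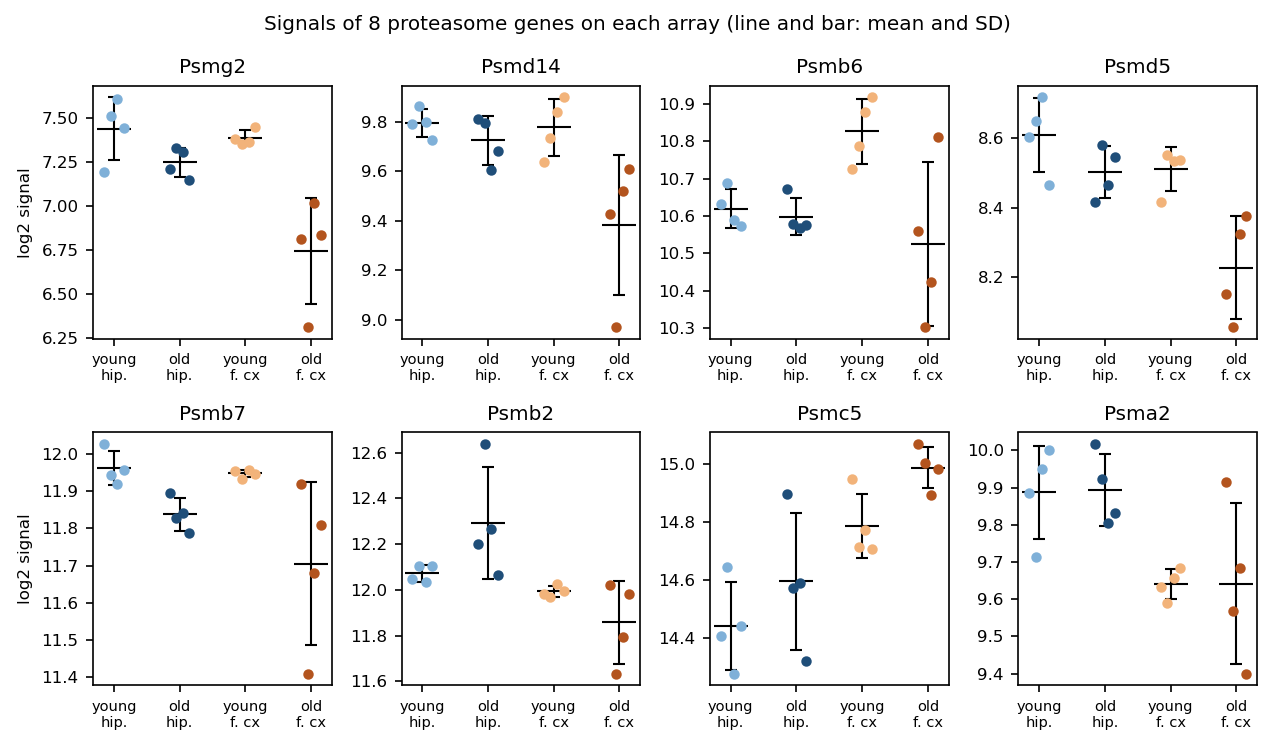
Log2 signal of 8 proteasome genes (vertical axes, each on its own scale) on each array of the 4 groups (horizontal axes); points are arrays, and the black line and bar are the mean and SD of 4 arrays. Psmg2 in old frontal cortex lies between 6.31 and 7.01, below its 4 young arrays, and Psmc5 in frontal cortex lies mostly above hippocampus.

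Between the regions, 5 of the 37 genes were called over both ages, 13.5%, beside 28.8% of all tested genes. Psma2, Psmb2, Psmg2 and Psmd5 were higher in hippocampus and Psmc5 was lower there. At an unadjusted p under 0.05 there were 9, of which 8 were higher in hippocampus, 24.3% beside 38.9% of all genes. The differences, hippocampus minus frontal cortex, were positive for 24 of the 37 and had a median of 0.06, beside 0.0031 over all genes, and they ran from -0.37 to 0.28.

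Psmc5, an ATPase of the cap, was lower in hippocampus by 0.37 log2, 1.29-fold. Its signals in young rats were 14.41, 14.64, 14.28 and 14.44 in hippocampus and 14.95, 14.71, 14.77 and 14.71 in frontal cortex. In old rats they were 14.89, 14.57, 14.59 and 14.32 in hippocampus and 15.07, 15.004, 14.89 and 14.98 in frontal cortex. Within each code the hippocampal array was the lower one, in 8 of 8 codes, by 0.07 to 0.66.

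The limma difference of Psmc5 was -0.37 ± 0.08 (SE), adjusted p 0.00186, and its second spot gave -0.36. It was -0.34 in young and -0.39 in old rats. It passed whichever of the 16 arrays was left out. None of the other 5 ATPase genes was called, and their differences ran from -0.13 for Psmc1 to 0.05 for Psmc2.

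Psma2, an alpha ring subunit, was higher in hippocampus by 0.25 ± 0.07 (SE), 1.19-fold, adjusted p 0.0146. It read 9.88, 9.71, 9.95 and 10.001 in young hippocampus and 9.63, 9.59, 9.66 and 9.68 in young frontal cortex. In old rats it read 10.02, 9.92, 9.81 and 9.83 in hippocampus and 9.92, 9.57, 9.68 and 9.40 in frontal cortex. The regions separated in young rats and overlapped in old rats through frontal cortex array AF, and the hippocampal array was higher in 8 of 8 codes. The second spot gave 0.09, and with the mean of both spots the call was lost (0.17, adjusted p 0.118).

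Psmb2 was higher in hippocampus by 0.26 ± 0.08 (SE), 1.20-fold, adjusted p 0.02. In young rats it read 12.05, 12.10, 12.03 and 12.11 in hippocampus and 11.98, 11.97, 12.03 and 11.997 in frontal cortex. In old rats it read 12.20, 12.64, 12.27 and 12.07 in hippocampus and 12.02, 11.63, 11.79 and 11.98 in frontal cortex. It was the only 1 of the 37 whose 8 hippocampal arrays all lay above all 8 frontal cortex arrays, 2.7% beside 8.73% of all tested genes. The margin was small: the arrays of code AA differed by 0.0064 and those of code AG by 1.00.

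The region difference of Psmb2 was 0.08 in young and 0.44 in old rats, and the test of the gap between these, the difference of age effects given above, did not pass. All 10 spots of the gene were higher in hippocampus, by 0.18 to 0.29. Leaving out any 1 array kept the call, and without codes AF and AG the difference was 0.18, adjusted p 0.0447. The call was lost with the title code as a fixed block (adjusted p 0.0662).

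Psmg2 was higher in hippocampus by 0.28 ± 0.09 (SE), 1.21-fold, adjusted p 0.0264, and its second spot gave 0.27. The difference was 0.05 in young rats, where the regions overlapped, and 0.50 in old rats, where all hippocampal arrays lay above all frontal cortex arrays. Within codes the hippocampal array was higher in 6 of 8. The call was lost without old hippocampus array AG or young hippocampus arrays AA or Z (adjusted p 0.0508 to 0.0557), and without codes AF and AG (0.18, adjusted p 0.126).

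Psmd5 was higher in hippocampus by 0.19 ± 0.06 (SE), 1.14-fold, adjusted p 0.0274. It read 8.60, 8.65, 8.72 and 8.47 in young and 8.42, 8.58, 8.46 and 8.55 in old hippocampus. Beside the frontal cortex signals given above, the regions overlapped in young rats and separated in old rats, and the hippocampal array was higher in 7 of 8 codes. Any 1 of 6 arrays left out (hippocampus young AA, young Z or old AG, frontal cortex young Y, old AF or old AG) raised the adjusted p to between 0.0501 and 0.0606. Psmd13, a lid subunit, followed with 0.15 ± 0.06 (SE) and an adjusted p of 0.0656, and was higher in hippocampus in 8 of 8 codes.

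By place in the particle, the region differences were positive for 5 of 7 alpha genes, 5 of 7 beta genes, 3 of 6 ATPase genes and 6 of 11 non-ATPase genes. They were positive for 2 of 3 cap chaperones and 3 of 3 core chaperones. Of the cutting subunits, Psmb5 differed by -0.02 ± 0.06 (SE), Psmb6 by -0.07 ± 0.07 and Psmb7 by 0.07 ± 0.06, none called. For 36 of the 37 genes (97.3%) the 95% interval of the region difference lay within 0.5 log2 of 0, beside 76% of all tested genes.

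Markers of bordering tissue took different values in the regions too. On single arrays the striatal mean, over the 9 markers on the array, ran from -0.80 to -0.52 in hippocampus and from -0.16 to 1.83 in frontal cortex. The choroid plexus mean, over 10 markers, ran from -0.76 to 3.42 in hippocampus and from -1.32 to -1.02 in frontal cortex. The part of these tissues in the proteasome values was not tested. Slides and scan dates could not be matched to these arrays, so batches could not be compared.

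**Figure D4:**
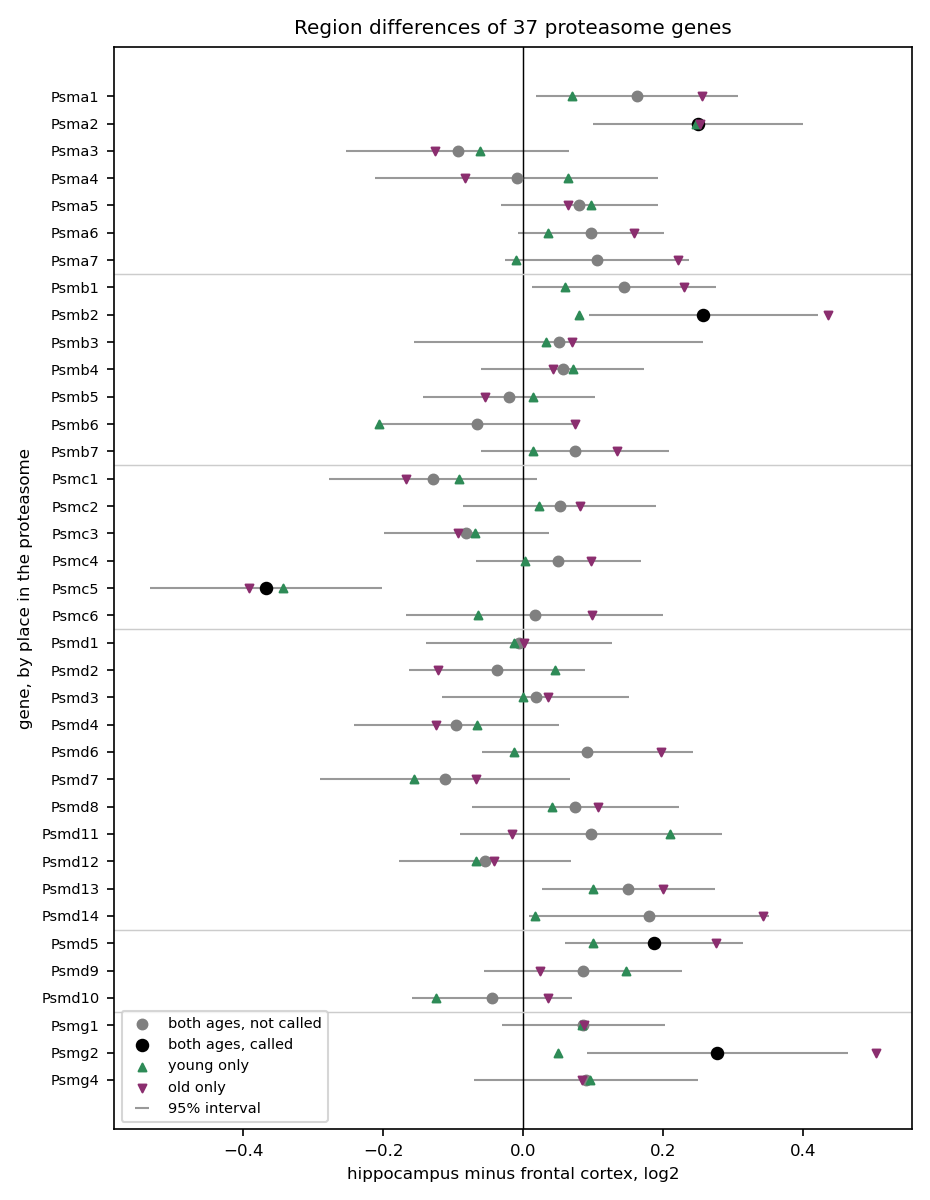
Hippocampus minus frontal cortex difference in log2 signal (horizontal axis) for the 37 tested genes (vertical axis, by place in the particle); circles are the limma estimates over both ages with 95% intervals, black where called, and triangles the differences in young and in old rats. Psmc5, at -0.37, is the called gene left of 0, and for Psmb2 and Psmg2 the old rats' values of 0.44 and 0.50 lie far from the young rats' 0.08 and 0.05.

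The promoter letters of the 5 genes that differed between regions are shown because they carry the called differences, Psmg2 by age as well. Each line gives the 150 bases before the gene's start, 5′ to 3′ on the gene's strand, from RefSeq's GRCr8 rat assembly. Capitals mark matches, on either strand, to the GC box GGGCGG and the CCAAT box, motifs common in housekeeping promoters, and to TGACNNNGC. The last is the core of the antioxidant response element, through which the NRF transcription factors are known to raise proteasome genes.
Psmg2, chr18:63478470-63478619, plus strand: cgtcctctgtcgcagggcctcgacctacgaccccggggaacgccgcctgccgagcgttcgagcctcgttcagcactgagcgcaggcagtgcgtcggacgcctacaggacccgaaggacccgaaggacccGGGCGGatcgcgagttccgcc
Psmc5, chr10:91687403-91687552, plus strand: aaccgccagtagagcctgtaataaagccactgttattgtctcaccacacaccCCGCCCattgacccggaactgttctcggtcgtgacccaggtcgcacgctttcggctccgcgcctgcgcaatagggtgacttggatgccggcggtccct
Psma2, chr17:55260442-55260591, minus strand: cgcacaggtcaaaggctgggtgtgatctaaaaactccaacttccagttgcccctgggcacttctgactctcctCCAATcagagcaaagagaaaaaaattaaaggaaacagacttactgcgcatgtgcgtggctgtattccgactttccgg
Psmb2, chr5:144254908-144255057, plus strand: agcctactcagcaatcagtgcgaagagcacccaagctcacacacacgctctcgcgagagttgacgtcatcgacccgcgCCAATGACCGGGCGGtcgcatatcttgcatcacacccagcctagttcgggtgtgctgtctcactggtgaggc
Psmd5, chr3:38548491-38548640, minus strand: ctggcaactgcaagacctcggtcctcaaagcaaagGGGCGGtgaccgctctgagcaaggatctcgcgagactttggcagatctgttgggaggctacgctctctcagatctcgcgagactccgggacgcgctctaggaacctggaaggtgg
In Psmb2 the capitals are overlapping matches: the CCAAT box from 72 to 68 bases before the start, the antioxidant core from 68 to 60 and the GC box from 63 to 58. The other 4 genes hold no match to TGACNNNGC in the 250 bases searched.

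RefSeq promoters were found for 33 of the 38 genes (not for Psma7, Psmb11, Psmd6, Psmd12 and Psmd14) and were searched over the 250 bases before the start on both strands. The GC box GGGCGG occurred in 24 of the 33, 72.7%, beside 30.5% of all 33469 rat promoters. CGGAAG, the core bound by ETS factors, occurred in 16 (48.5%, beside 13.9%), and CCAAT in 16 (48.5%, beside 34%). TGACNNNGC occurred in 6, 18.2% beside 10.1%: Psma3, Psmb2, Psmb5, Psmb6, Psmd1 and Psmd9. These are matches of letters, which show neither binding nor a cause of any difference.

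The 6 genes with the antioxidant core did not share an age difference. In frontal cortex they were -0.07 for Psma3, -0.14 for Psmb2, -0.07 for Psmb5, -0.30 for Psmb6, 0.03 for Psmd1 and 0.21 for Psmd9, none called. In hippocampus they ran from -0.14 to 0.22, none called. Psma3 is uncertain throughout: a near-identical copy, Psma3l, exists, and whether it binds the same probes was not tested.

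The genes around the constitutive particle were measured alongside. The products of the 5 immunoproteasome and PA28 genes (Psmb8, Psmb9, Psmb10, Psme1 and Psme2) replace the constitutive cutting subunits or cap the core under interferon. None of the 5 was called in any comparison by limma. An unadjusted p under 0.05 was found for 2, both for age in hippocampus, where 6.77% of all tested genes had that p. Their hippocampal age differences were all positive, from 0.16 to 0.40, against -0.37 to 0.22 for the constitutive genes. In frontal cortex 3 of the 5 were positive and 2 negative, from -0.07 to 0.20. The largest in hippocampus were 0.40 ± 0.17 (SE) for Psmb8, adjusted p 0.697, and 0.30 ± 0.08 for Psme2, adjusted p 0.472. The mean of the 10 microglia markers also differed by age in hippocampus, from -0.38 to -0.06 on young and from 0.02 to 0.37 on old arrays, and its part in these values was not tested.

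In the NRF route, through which cells renew proteasomes, 7 genes were tested. Ddi2, the protease that frees NRF1 from the membrane, was called higher in old frontal cortex, by 0.53 ± 0.10 (SE), adjusted p 0.0237, the only 1 of the 7 called by age. Its means were 6.22 in young and 6.74 in old frontal cortex and 6.27 and 6.43 in hippocampus. It thus passed the intensity minimum of 6.49, and was tested, only through the group where it is high. Neither its call nor the size of its difference is firm. Ddi2 lost the call when any 1 of the same 5 frontal cortex arrays as for Psmg2 was left out (adjusted p up to 0.1). It also lost the call without codes AF and AG (adjusted p 0.191). Nfe2l1, which encodes NRF1, was lower in hippocampus than in frontal cortex by 0.22 log2 (-0.22 ± 0.06 (SE), adjusted p 0.0135), in 16 of 16 fits without 1 array. Its partner Mafg was also called lower in hippocampus, at -0.25 ± 0.09 (SE), adjusted p 0.0397, but in 6 of those 16 fits. Under other changes of the processing or arrays the call held in 10 of 12 fits for Nfe2l1 and 11 of 13 for Mafg. Both lost it with old arrays alone, and Nfe2l1 with young arrays alone as well. In the main fit 2 of the 7 genes were called between regions, beside 28.8% of all tested genes, so the share is near the background.

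Among 11 tested activators, inhibitors and partners of the proteasome, none was called by age, and 1 in either region had an unadjusted p under 0.05. That gene, Akirin2, which brings proteasomes into the nucleus, stood at 0.19 ± 0.07 (SE) in hippocampus and -0.22 ± 0.07 in frontal cortex, adjusted p 0.675 and 0.118. Usp14, a deubiquitinase of the cap, was higher in hippocampus than in frontal cortex by 0.25 ± 0.09 (SE), adjusted p 0.04, which held in 7 of 16 fits without 1 array. Of 6 tested ubiquitin genes and shuttles, none was called by age (0 at an unadjusted p under 0.05). Between regions Ubqln4 was lower in hippocampus (-0.48 ± 0.09, adjusted p 0.000526, 16 of 16 fits) and Ubqln2 higher (0.20 ± 0.06, adjusted p 0.0237, 14 of 16 fits). Of 13 other alternatives, the call held in 12 for Ubqln4, 10 for Ubqln2 and 7 for Usp14. All of them lost it with old arrays alone, and Ubqln2 and Usp14 with young arrays alone as well. Region calls were common on this array, at 28.8% of all tested genes, so those of Usp14, Ubqln4 and Ubqln2 are not particular to this pathway.

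Within groups, the 37 genes varied together only in part. Over the 666 pairs of genes, the correlation of their residuals on the 16 arrays had a median of 0.16 and ran from -0.81 to 0.86, and 434 pairs were above 0. All genes of an array share its RNA, labelling and scaling. All 37 tested genes have more than 1 spot, and the spots of a gene gave the same sign for 20 genes in the hippocampal age difference, 31 in the frontal cortex age difference and 30 in the region difference.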

How the data were processed

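The authors labelled total RNA with Cy3, hybridised it to one-colour Agilent arrays and quantified scans with Agilent Feature Extraction (version not given), per the labels. The values are log2 signals as deposited; the log base was read from their range (4.94 to 17.8), while how the authors corrected background and normalized is not given in the sources used here. All 16 columns hold the same values to within 0.000933, as quantile normalization leaves them. A raw table's 16 columns match no label and were not used.

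Symbols of 39826 spots were updated by accession from RefSeq GRCr8, 6078 kept the array's symbol and 17072 of 62976 spots name no gene. The 75th percentile of the gene spots (9.42 to 9.44) was then aligned between arrays. A gene was represented by its spot of highest mean over 16 arrays and was tested if at least 1 group mean lay above the 40th percentile of spot means (6.49 log2). limma 3.58.1 in R 4.3.3 fitted 4 group means (12 residual and 4.07 prior degrees of freedom), two-sided, with Benjamini-Hochberg adjustment over 10056 genes for each of 4 comparisons. The procedure was tested on simulated data.

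Genes named with values are those called, the 6 of smallest p and the extreme differences in each comparison, the lowest and highest signals, and Psmb5, Psmb6, Psmb7, Psmd4, Psmd14, Psma7 and Psmc4; any other gene was picked with its value in view. The members and the gene lists were chosen with earlier results of these data known. Same-coded arrays of the 2 regions did not deviate together for every code (r from -0.17 to 0.28, over 0.1 for 3 of 8), and the labels do not say what a code is, so codes were not used as pairs.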

Additional observations from a re-analysis of the deposited data

Results flagged for a closer look

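Within the groups, 5 of 76 sets of 4 arrays had 1 array far from the other 3 by Dixon's test, where chance gives about 1 in 20. On old hippocampus array AF, Psmb6 was highest at 10.67 (the nearest other array read 10.58), Psmc4 lowest at 10.25 (nearest 10.53) and the untested Psmb11 highest at 6.70 (nearest 5.62). On young frontal cortex array Y, Psmd5 was lowest at 8.42 (nearest 8.53) and Psmd8 lowest at 10.46 (nearest 10.64). Array AF also had the highest erythrocyte marker mean in hippocampus, 1.21, and array Y a myelin mean of -0.70 beside -0.82 on Z and -0.13 and -0.04 on AA and AB. Their part in these values was not tested.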

How the results depend on the processing

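Each result was recomputed under the alternatives that apply to it, of 15 in all, and without each of the 16 arrays. The absence of calls by age in hippocampus and for the difference of age effects held in all of these, and no called difference changed sign. In frontal cortex, where 1 gene was called, 0 were called with the stricter intensity filter (which removes Psmg2), with the mean of all spots, with the frontal cortex arrays alone and without codes AF and AG, an alternative added after seeing the data; leaving out 1 array gave 0 to 5, while the calls over all genes ran from 4 to 741 beside 97. Between regions, where 5 were called, young arrays alone gave 2, old arrays alone 0, the fixed replicate block by title code 3 (Psmc5, Psma2 and Psmg2) and the fit without codes AF and AG 3; these fits called 1922, 1040, 2783 and 2776 of all genes beside 2897; leaving out 1 array gave 3 to 6, the 3 without young hippocampus array AA or Z. The labels do not say that a code is an animal; 3 of 8 codes correlated best with their own code in the other region, and the erythrocyte means had the same order over the 4 old codes in both, which is a hint from the data only. A random replicate block (consensus correlation 0.0506) gave 5 and 1 calls as before. With the mean of all spots Psma2 and Psmd5 lost the region call (adjusted p 0.118 and 0.0551) and Psma1 and Psmd13 gained it (0.0402 and 0.043). The median age difference in frontal cortex stayed between -0.10 and -0.05. The precision is limited by 4 arrays per group: the median SE over these genes was 0.09 for an age difference and 0.07 for a region difference. Some of the fits concerned hold fewer arrays or genes. The cause of these changes was not tested.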
